A study of Micropterus salmoides with 45 samples.

Results

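In mammals miR-122 is the main microRNA of hepatocytes. Both arms of its hairpin, miR-122-5p and miR-122-3p, were followed through the livers of largemouth bass (Micropterus salmoides) exposed to low oxygen. The members were taken by name (msa-miR-122-5p and msa-miR-122-3p) from the deposited tables and are 2 of the 266 miRNAs listed there. The design text of the series speaks instead of common carp and temperature groups. The series title and the sample labels give largemouth bass and hypoxia, and the labels were followed. Small RNA of 15 to 35 nt was sequenced from liver on an Illumina HiSeq instrument. Fish 6 months old were held in 9 tanks at 20 °C, 3 tanks per oxygen level and 30 fish per tank, and were fasted. Control fish had dissolved oxygen of 7.0 ± 0.2 mg/L, moderate hypoxia was 3.0 ± 0.2 mg/L and severe hypoxia was 1.2 ± 0.2 mg/L. Oxygen was lowered with nitrogen within 2 h, the end of which is 0 h, and livers were taken at 0, 4, 8, 12 and 24 h, which gives 15 groups of 3 libraries each. No group carries a genetic change or a drug, and every fish was sampled under MS-222 anaesthesia. The labels speak of 5 fish per sampling but do not tie libraries to fish or tanks, so tank and oxygen level cannot be told apart, and the spread behind each p-value is that between libraries, which may be technical.

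A miRNA is cut as a hairpin from a longer transcript in the nucleus and then trimmed to a short duplex in the cytoplasm. As a rule the guide arm of the duplex is loaded into Argonaute and represses messenger RNAs, while the other arm is degraded. In mammalian liver miR-122-5p is the guide and is known for its effects on cholesterol and fatty acid metabolism and on keeping hepatocytes differentiated, and miR-122-3p is the passenger arm. In bulk liver, fewer hepatocytes and less miR-122 per hepatocyte cannot be told apart.

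Values are in rpm, reads scaled to a library total that is not stated. The listed miRNAs of a library add up to between 300084 and 961089 rpm, so rpm is not a share of the listed miRNAs, and the share of the listed total is given beside rpm where it matters. Spacing of low values implies a depth of 1.01 to 5.57 mega-reads per library, which corresponds to between 7555 and 61238 reads of miR-122-5p and between 35 and 2674 reads of miR-122-3p over the measured values. For most miRNAs, 1 of the 3 values of a group is exactly the average of its companions. Such an averaged value was not counted, so each arm has n = 2 in every group. Levels in rpm name it as averaged, and shares and ratios below are from measured values unless said otherwise. Both arms together are measured in 2 libraries of 6 groups and in 1 library of 9 groups.

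miR-122-5p was abundant in every library where it was measured, with a median of 6659 rpm over 30 measured values and a range from 3317 to 39344. By its mean over all 45 deposited values it was the 16th most abundant miRNA, with 8794 rpm and 1.73% of the listed total. miR-26a-5p (82806 rpm on average) and miR-192-5p (65142 rpm) were more abundant. In single libraries its rank ran from 40, in a control library at 12 h, to 1, in a library of moderate hypoxia at 24 h. miR-122-3p had a median of 111 rpm over 30 measured values and a range from 34.5 to 629, and ranked 109th by its mean. The 3p arm was between 0.101% and 9.29% of the rpm of both arms in the 21 libraries where both were measured. The main hepatocyte miRNA of mammals was thus present in all 30 libraries where miR-122-5p was measured. By its mean it was not the most abundant miRNA of these livers.

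In control livers miR-122-5p varied with the hour. At 0 h the measured libraries gave 8959 and 6263 rpm and the averaged value was 7611. At 4 h they gave 6242 and 9322 rpm, with 7782 averaged. These hours overlapped in full. At 8 h the libraries gave 11273 and 10998 rpm, with 11135 averaged, and at 24 h 11805 and 12968 rpm, with 12387 averaged. At 12 h they gave 3505 and 3317 rpm, with 3411 averaged, below every other library of the series. The change over time in control had an adjusted p of 0.000153 (F-test in limma's moderated linear model, Benjamini-Hochberg over 208 miRNAs). Change over time was common in control, with 78.4% of the miRNAs called, that is with an adjusted p under 0.05.

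In moderate hypoxia the guide arm was lower throughout the first 12 h than at 24 h. At 0 h the libraries gave 4855 and 5641 rpm, with 5248 averaged, and at 4 h 4979.5 and 4029 rpm, with 4504 averaged. At 8 h they gave 6568 and 4244 rpm, with 5406 averaged, and at 12 h 5782 and 6751 rpm, with 6266 averaged. Each of these hours overlapped with at least 1 of the others. At 24 h the libraries gave 39344 and 18412 rpm, with 28878 averaged, which put all of them above every library of every other group, although they differed from each other by about as much as they stood above control. In share of the listed total the measured libraries were at 5.54% and 10.9%, against 3.47% and 4.32% in control at 24 h. The change over time in moderate hypoxia had an adjusted p of 1.34e-06 in limma's F-test, where 85.0% of 200 miRNAs were called.

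In severe hypoxia miR-122-5p varied least. At 0 h the libraries gave 7494 and 9849 rpm, with 8672 averaged, and at 4 h 9203 and 10641 rpm, with 9922 averaged. At 8 h they gave 5884 and 6489 rpm, with 6186 averaged, and at 12 h 6091 and 5747 rpm, with 5919 averaged. At 24 h they gave 6865 and 10298 rpm, with 8582 averaged. The libraries at 8 and 12 h lay below those of the other hours, which overlapped. No change over time passed the test (adjusted p = 0.123 in limma's F-test, where 63.3% of 207 miRNAs were called).

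**Figure D1:**
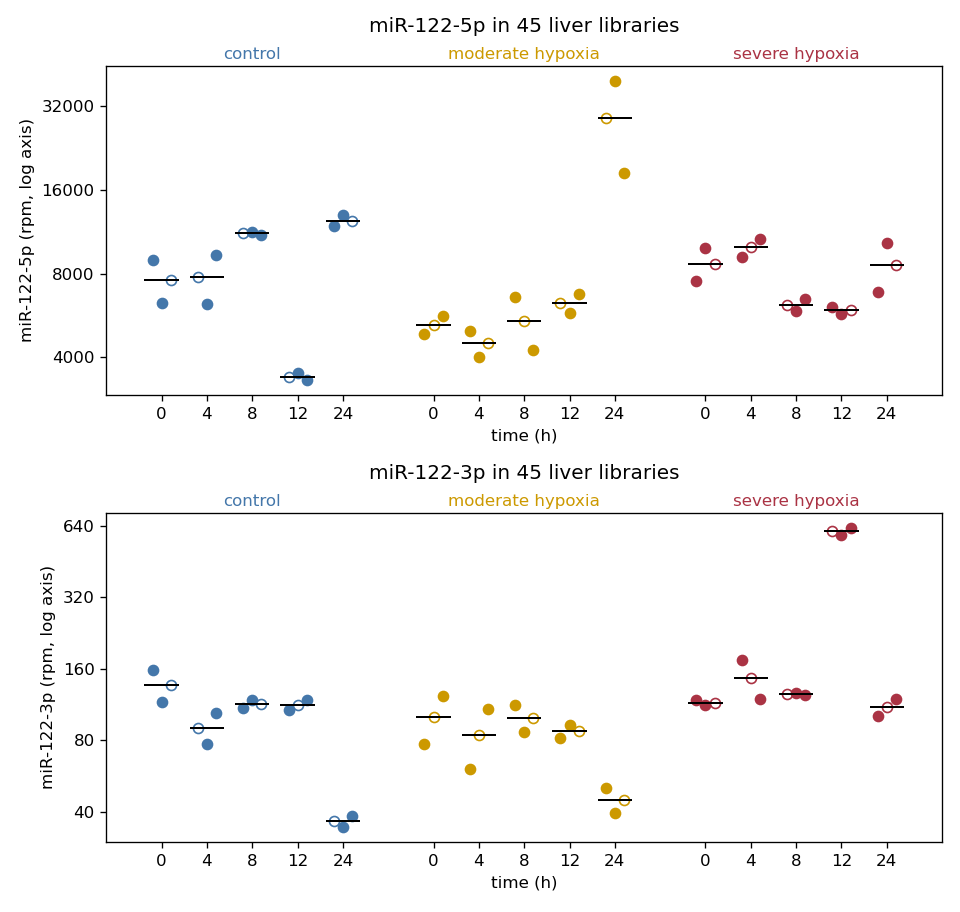
Level of each miR-122 arm in rpm on a log axis, against time in h, in control, moderate hypoxia and severe hypoxia. Filled points are measured libraries, open points are averaged values that were not counted, and bars are means of the measured libraries. miR-122-5p stands highest in moderate hypoxia at 24 h (18412 to 39344 rpm) and lowest in control at 12 h, while miR-122-3p stands highest in severe hypoxia at 12 h (589 to 629 rpm) and lowest in control at 24 h.

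The passenger arm followed another course. In control livers miR-122-3p gave 158 and 116 rpm at 0 h, with 137 averaged, and 77.2 and 104 rpm at 4 h, with 90.6 averaged. It gave 110.0 and 119 rpm at 8 h, with 114 averaged, and 107 and 118 rpm at 12 h, with 113 averaged. At 4 h every library lay below those of 0, 8 and 12 h, while 8 h overlapped with both 0 and 12 h. At 24 h the libraries gave 34.5 and 38.6 rpm, with 36.6 averaged, below every earlier control library. The change over time in control had an adjusted p of 5.65e-05 in limma's F-test.

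In moderate hypoxia miR-122-3p gave 77.7 and 123 rpm at 0 h, with 100.5 averaged, and 60.4 and 109 rpm at 4 h, with 84.7 averaged. It gave 113 and 86.4 rpm at 8 h, with 99.7 averaged, and 81.9 and 93.0 rpm at 12 h, with 87.4 averaged. These hours overlapped. At 24 h the libraries gave 50.3 and 39.7 rpm, with the averaged value between them, again below every earlier library of this oxygen level. The change over time had an adjusted p of 0.00473 in limma's F-test, which moved to 0.104 without library 2 of the 24 h group.

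In severe hypoxia miR-122-3p gave 118 and 113 rpm at 0 h, with 115 averaged, and 174 and 119.9 rpm at 4 h, with 147 averaged. It gave 126 and 124 rpm at 8 h, with 125 averaged. Apart from 1 library at 4 h, these were within the range of control over its first 12 h. At 12 h the libraries gave 589 and 629 rpm, with 609 averaged, more than any of the 42 other libraries, whose highest was 174. At 24 h they gave 101 and 119.5 rpm, with 110.3 averaged. The change over time in severe hypoxia had an adjusted p of 1.71e-06 in limma's F-test.

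Severe hypoxia was compared with control to ask what very low oxygen does to each arm. miR-122-3p was higher, and the difference sat at 12 and 24 h, while miR-122-5p was not higher or lower as a mean over the 5 times. At 24 h the 3p mean in severe hypoxia, 110.3 rpm, was below each of its earlier group means, and control had 36.6 rpm. For 3p the mean of the within-hour differences was 0.91 log2 (SE 0.12, 95% interval 0.65 to 1.17, adjusted p = 1.87e-05 in limma), with the 5 group means averaging 221 rpm against 98.3. It was higher at 4 of 5 times. The exact permutation test of oxygen labels within each hour, two-sided, gave p = 0.00952, where the smallest it can give is 0.000257. In this comparison 26.4% of 201 miRNAs were called, 11.4% as higher. Without 12 and 24 h together the 3p difference was 0.19 (adjusted p = 0.502), a choice made after seeing the data, and with the spread of the 5 differences as the error the adjusted p was 0.774.

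At 12 h miR-122-3p was 609 ± 28.9 rpm in severe hypoxia and 113 ± 7.94 in control (SD, n = 2 each), a 5.36-fold rise (log2 2.42, SE 0.28, adjusted p = 2.43e-06 in limma). The groups did not overlap, and 32.4% of 213 miRNAs were called at this hour, 9.86% as higher. At 24 h the levels were 110.3 ± 13.0 and 36.6 ± 2.86 rpm, a 2.96-fold difference (log2 1.56, SE 0.28, adjusted p = 0.000290). At this hour 33.8% of 213 miRNAs were called and the median miRNA differed by 0.45 log2. The severe libraries at 24 h were near the control libraries of 8 and 12 h, and control at 24 h was below its own earlier hours. Listed miRNAs summed to between 300084 and 359347 rpm in control at 24 h and to between 524255 and 539699 rpm in severe hypoxia. Rescaled to the listed total, which moved the median miRNA by -0.65 log2 at 24 h, the 3p difference was 0.89 log2 (adjusted p = 0.0139 in limma), and at 12 h it was 2.61.

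At the other hours miR-122-3p did not pass the test against control. The log2 difference was -0.23 at 0 h (adjusted p = 0.717), 0.68 at 4 h (adjusted p = 0.209) and 0.13 at 8 h (adjusted p = 0.792), all in limma. At 4 h the severe libraries lay above the control ones, at 8 h they lay just above, and at 0 h the groups overlapped. That the 3p difference depends on the hour was tested directly, with an adjusted p of 9.55e-05 in the interaction F-test, where 57.2% of 201 miRNAs were called.

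miR-122-5p differed by -0.01 log2 between severe hypoxia and control as a mean over times (SE 0.13, 95% interval -0.29 to 0.27, adjusted p = 0.968 in limma). The within-hour differences had both signs and depended on the hour (adjusted p = 0.0126 for the interaction). At 8 h the arm was lower, with 6186 ± 428 rpm against 11135 ± 194 in control (SD, n = 2 each, log2 -0.85, SE 0.30, adjusted p = 0.0454). At this hour 23.6% of 216 miRNAs were called and 18.1% were lower. At 12 h miR-122-5p was higher, with 5919 ± 243 rpm against 3411 ± 133 in control (log2 0.79, SE 0.30, adjusted p = 0.0484). Both calls lie close to the threshold. The 8 h call ended when values were rescaled to the listed total (log2 -0.37, adjusted p = 0.483 in limma), a step that moved the median miRNA by 0.39 log2, and in 4 of 6 fits that left out a library. The 12 h call ended in all 6 fits that left out a library (adjusted p from 0.0516 to 0.161). At 24 h the difference of -0.56 log2 did not pass (adjusted p = 0.154), but on the rescaled values it did (log2 -1.31, adjusted p = 0.00244).

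**Figure D2:**
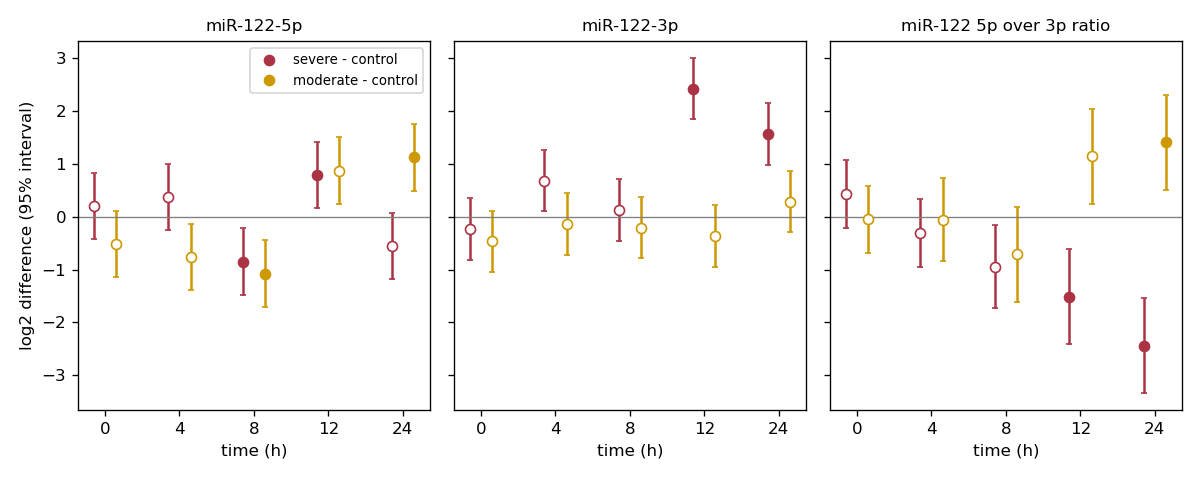
Log2 differences from control within each hour, with 95% intervals, for miR-122-5p, miR-122-3p and their ratio, against time in h. Filled points have an adjusted p under 0.05 in limma. In severe hypoxia the 3p difference is 2.42 at 12 h and 1.56 at 24 h, and in moderate hypoxia no 3p difference passed the test.

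Moderate hypoxia was compared with the same control libraries, so the 2 comparisons share them. miR-122-3p differed by -0.18 log2 as a mean over times (SE 0.12, 95% interval -0.44 to 0.08, adjusted p = 0.304 in limma) and was called at 0 of 5 times, with 0 also at an unadjusted p under 0.05. In this comparison 38.1% of 197 miRNAs were called by limma, 32.0% as lower. The differences ran from -0.47 at 0 h to 0.29 at 24 h. At 12 h, where severe hypoxia had its 609 rpm, moderate hypoxia had 87.4 ± 7.87 rpm against 113 ± 7.94 in control (SD, n = 2 each).

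miR-122-5p in moderate hypoxia was lower than control at 8 h and higher at 24 h. At 8 h it was 5406 ± 1643 rpm against 11135 ± 194 (log2 -1.08, SE 0.30, adjusted p = 0.0110 in limma), when 34.4% of 215 miRNAs were called and 34.0% were lower. On values rescaled to the listed total, which moved the median miRNA by 0.74 log2, the difference was -0.27 (adjusted p = 0.675). Without library 3 of moderate hypoxia at 8 h the adjusted p was 0.109. At 24 h it was 28878 ± 14801 rpm against 12387 ± 823 (log2 1.12, SE 0.30, adjusted p = 0.0116), with no overlap, when 20.2% of 208 miRNAs were called and 9.13% were higher. This rise held on the rescaled values (log2 1.004, adjusted p = 0.0126) and moved to 0.57 (adjusted p = 0.239) without library 2 of moderate hypoxia, the highest of the series. Without library 1 of control at 24 h it was 1.05 (adjusted p = 0.0800). The 4 and 12 h differences of -0.77 and 0.87 did not pass (adjusted p = 0.0502 and 0.0964). The mean over times was -0.07 log2 (95% interval -0.35 to 0.21, adjusted p = 0.714), and the dependence on the hour had an adjusted p of 0.000680, where 68.0% of 197 miRNAs were called.

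The 2 hypoxia levels were compared directly to ask whether the arms differ with the depth of hypoxia. miR-122-3p was higher in severe than in moderate hypoxia by 1.09 log2 as a mean over times (SE 0.12, adjusted p = 5.79e-06 in limma). In rpm it was higher at 5 of 5 times, and the exact permutation test within the hour gave p = 0.000772. Here 28.4% of 194 miRNAs were called. The difference was 2.79 at 12 h (adjusted p = 5.44e-07) and 1.28 at 24 h (adjusted p = 0.00196), where 37.3% of 217 and 32.2% of 205 miRNAs were called. The 3p difference at 8 h was 0.34 (adjusted p = 0.441 in limma), when the median miRNA differed by 0.32. The mean 3p share at that hour was 0.0217% in severe and 0.0227% in moderate hypoxia. At 0 h the rpm difference was 0.23 (adjusted p = 0.567 in limma), and -0.097 without library 1 of moderate hypoxia. At 4 h it was 0.83 (adjusted p = 0.0272), at an hour when 31.1% of 219 miRNAs were called, 29.7% as higher, and the median miRNA differed by 0.41. This call did not hold on the rescaled values (log2 0.17, adjusted p = 0.641) or without library 1 of either group. miR-122-5p was lower in severe hypoxia at 24 h by 1.68 on the log2 scale, a value of -1.68 (adjusted p = 0.000431), and higher at 4 h (log2 1.14, adjusted p = 0.00485). The 4 h call ended on the rescaled values (log2 0.35, adjusted p = 0.388), and the 24 h one did not (log2 -2.31).

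Because the arms moved apart, their ratio varied widely. Both arms were measured in 21 libraries. In the 18 of them outside severe hypoxia at 12 h and outside control and moderate hypoxia at 24 h, the 5p to 3p ratio was between 28.0 and 94.9. Severe hypoxia at 12 h has 1 such library, with a ratio of 9.76, the lowest of the 21. Control at 24 h has 1, at 376, and moderate hypoxia at 24 h has 1, at 991. The lowest of the 18, at 28.0, is the single such library of control at 12 h, where the 5p level was low. With 1 library in each of these groups, their spread is not known from the ratio itself. Ratios that rest on an averaged arm were 9.40 and 10.003 in severe hypoxia at 12 h, 321 and 323 in control at 24 h, and 409 and 574 in moderate hypoxia at 24 h. The ratio does not depend on the denominator of rpm.

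**Figure D3:**
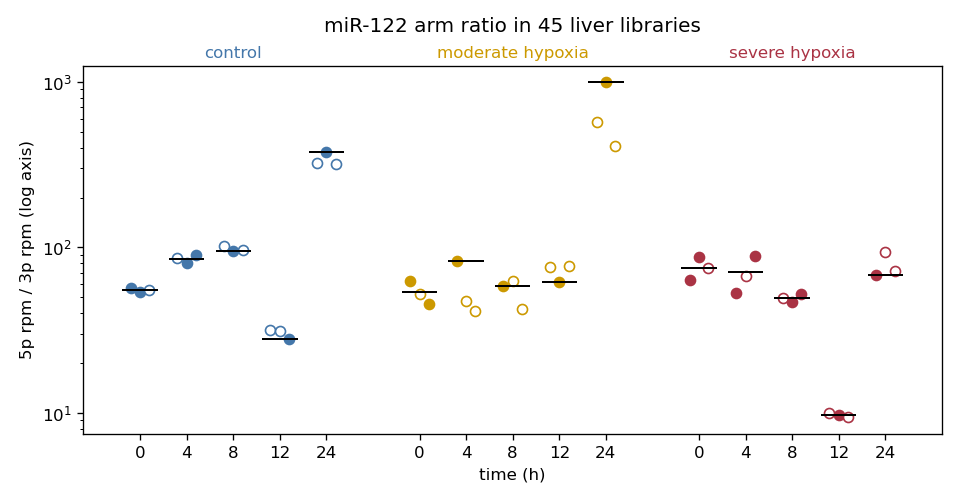
Ratio of miR-122-5p rpm to miR-122-3p rpm in each library on a log axis, against time in h. Filled points are libraries in which both arms were measured, open points have an averaged value in at least 1 arm, and bars are means of the filled points. The filled points of severe hypoxia at 12 h (9.76), control at 24 h (376) and moderate hypoxia at 24 h (991) lie outside the range of the others.

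As a mean over times the log2 ratio was lower in severe hypoxia than in control by a value of -0.95 (SE 0.16, adjusted p = 0.00175 in limma over 53 precursors, of which 26.4% were called). The exact permutation test within the hour gave p = 0.0995, where the smallest it can give is 0.00231. At 12 h the log2 difference was -1.51 (SE 0.40, adjusted p = 0.0151, 35.9% of 64 precursors called) and at 24 h it was -2.44 (SE 0.40, adjusted p = 0.00277, 26.3% of 57 called). At these hours each group has a single library with both arms measured, which is assumed to vary like the other groups. Taken instead from the fitted levels of the arms, the 24 h difference was -2.12, and without 12 and 24 h together the mean was -0.27 (adjusted p = 0.369). The ratio difference depended on the hour (adjusted p = 0.0148, with 26.4% of 53 precursors called).

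In moderate hypoxia the ratio did not differ from control as a mean over times beyond the spread (log2 0.35, 95% interval -0.02 to 0.72, adjusted p = 0.183 in limma over 52 precursors, of which 13.5% were called). At 24 h it was higher (log2 1.41, SE 0.40, adjusted p = 0.0385, 29.8% of 57 precursors called), with 1 library in each group, and from the fitted levels the difference was 0.84. Severe and moderate hypoxia differed by -1.30 log2 as a mean over times (adjusted p = 0.000347, 25.5% of 51 precursors called), by -2.66 at 12 h (adjusted p = 0.000788) and by -3.85 at 24 h (adjusted p = 9.21e-05), all in limma. The exact permutation p of the mean was 0.241, and from the fitted levels the 24 h difference was -2.96. The ratio changed over time at each oxygen level, with adjusted p of 0.000522 in control, 0.000122 in moderate and 0.000696 in severe hypoxia, where 49.2%, 42.9% and 51.7% of precursors were called.

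Set in order of their means, most neighbouring groups did not differ beyond the spread, while some groups further apart in the order did, as the comparisons within the hour show. The order was taken from the same values that were tested. Neighbours are therefore close by construction, the steps describe the order only, and their adjusted p does not cover this choice. For miR-122-5p, 1 of the 14 steps between neighbouring groups passed the test, from moderate hypoxia at 24 h to control at 24 h (log2 1.12, adjusted p = 0.0116 in limma). Below it came control at 8 h and severe hypoxia at 4 h, and the lowest were moderate hypoxia at 4 h and control at 12 h, none of which differed from its neighbour beyond the spread. For miR-122-3p, 2 of 14 steps passed, from severe hypoxia at 12 h to severe hypoxia at 4 h (log2 2.07, adjusted p = 2.90e-05) and from moderate hypoxia at 4 h down to moderate hypoxia at 24 h (log2 0.85, adjusted p = 0.0207). The 12 groups between those steps differed from neighbour to neighbour by at most 0.15 log2. For the ratio 3 of 14 steps passed, moderate over control at 24 h (log2 1.41), control at 24 h over control at 8 h (log2 1.96, adjusted p = 0.00423) and control at 12 h over severe hypoxia at 12 h (log2 1.51).

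The replicate spread of miR-122, pooled over the groups, was close to that of other miRNAs. Its residual SD was 0.32 log2 for 5p and 0.27 log2 for 3p, with a median of 0.32 over the 228 miRNAs fitted. The pooled value does not describe each group. In moderate hypoxia at 24 h the measured 5p libraries stood far apart, at 18412 and 39344 rpm, and the tests there use the pooled spread. For 3p the counting error implied by the depth was between 1.93% and 16.9% of the value, and was largest in control at 24 h, where the measured libraries had 35 and 42 implied reads. These are inferred reads and cover counting error only.

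On the share scale miR-122-5p in moderate hypoxia overlapped with control at 4 and 8 h, where it did not in rpm. At 4 h the shares were 0.929% and 1.06% in moderate hypoxia and 0.825% and 1.22% in control. At 8 h they were 0.948% and 1.39% against 1.30% and 1.48%. For severe hypoxia against control at 12 and 24 h the direction was that of rpm. miR-122-5p made up 0.416% and 0.452% of the listed total in the measured libraries of control at 12 h and 0.860% and 0.927% in severe hypoxia at 12 h. In severe hypoxia at 24 h the share was 1.27% and 1.92%, below both measured libraries of control and of moderate hypoxia at that hour. miR-122-3p made up 0.0855% and 0.0881% in severe hypoxia at 12 h and at most 0.0244% in the 28 measured values of other groups. At 24 h its share was 0.0187% and 0.0228% in severe hypoxia, above control (0.0107% and 0.0115%) and moderate hypoxia (0.0110% and 0.0136%).

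**Figure D4:**
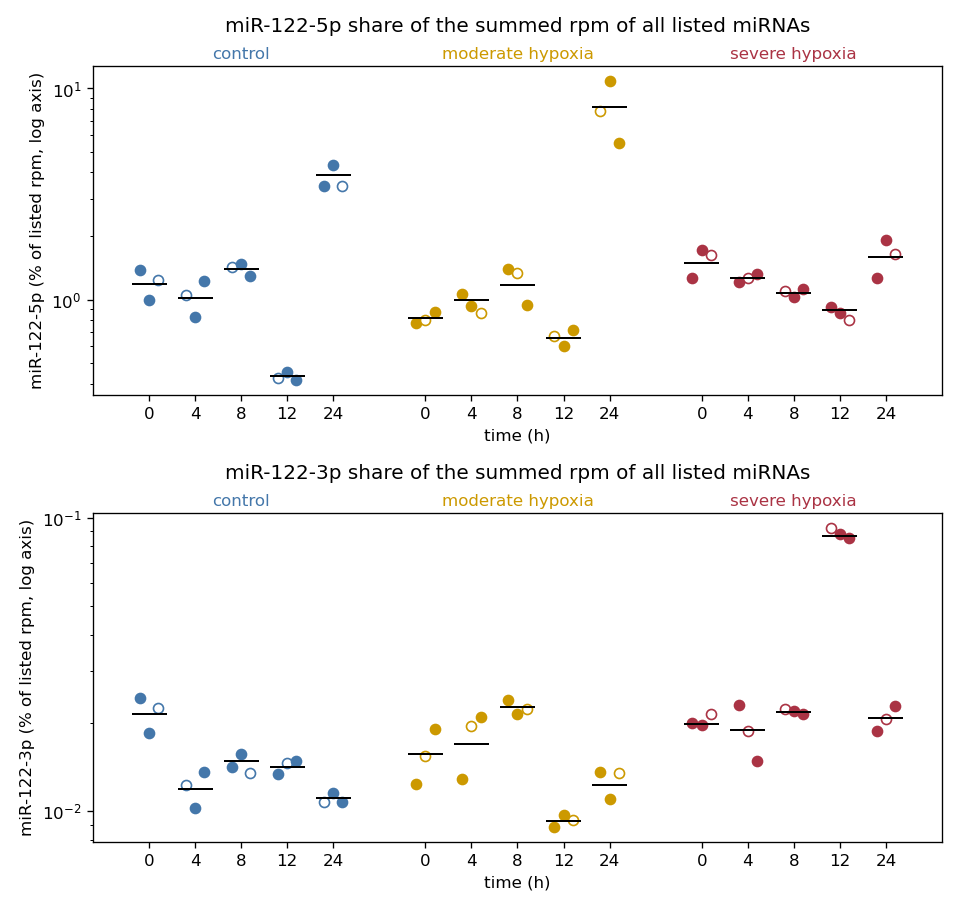
Each arm as a percentage of the summed rpm of the 266 listed miRNAs, on a log axis, against time in h. Filled points are measured libraries, open points are averaged values, and bars are means of the measured libraries. miR-122-5p reaches 10.9% in moderate hypoxia at 24 h, and the measured values of miR-122-3p lie at 0.0855% and 0.0881% in severe hypoxia at 12 h.

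Among other hairpins, few had an arm ratio with as wide a span over the 15 groups. Both arms are listed for 97 precursors, and 61 have a ratio in all 15 groups. Over those groups the log2 ratio of miR-122, taken from the group means of its arms, spanned 6.02, against a median span of 2.28. Only miR-126a (9.28) and miR-126b (11.4) spanned more, and these are paralogs by name between which reads could be split, so their values are uncertain. In severe hypoxia against control at 12 h, 13 other precursors of 64 had a ratio difference at least as large as that of miR-122 in either direction, and at 24 h 2 others of 57 had. The median precursor differed by -0.37 log2 at 12 h and by -0.016 at 24 h. In moderate hypoxia against control at 24 h, 6 others of 57 differed at least as much as miR-122.

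**Figure D5:**
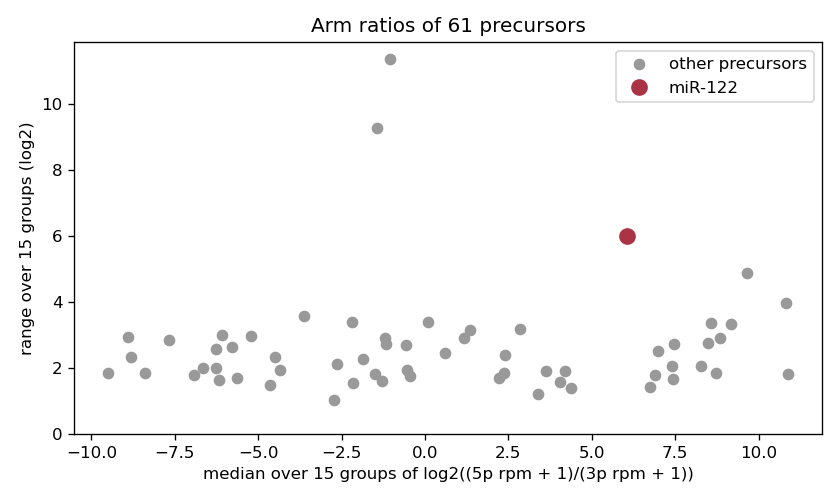
Span of the log2 ratio of 5p to 3p over the 15 groups (vertical axis) against its median (horizontal axis) for 61 precursors with both arms measured in every group, with miR-122 in red. miR-122 spans 6.02 log2 units, and 2 other precursors span more.

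Across the 15 group means the arms did not move together. Pearson's r of their log2 levels was -0.43 in rpm and -0.19 in share (Spearman's rho -0.12 and 0.014), a description over groups that share libraries and scaling. By share, the miRNAs most like miR-122-5p among 151 compared were miR-24-3p (r = 0.79), miR-17a-5p (0.79), miR-20a-5p (0.77), miR-140-5p (0.72) and miR-19a-3p (0.61), with Spearman's rho between 0.41 and 0.57. Without moderate hypoxia at 24 h, a choice made after seeing the data, their r was between 0.52 and 0.66. Of these only miR-24-3p (0.53) and miR-19a-3p (0.23) were among the first 5 in rpm. In rpm miR-17a-5p had its lowest group mean, 249.8, in control at 24 h, where miR-122-5p was high and the listed total was lowest. miR-20a-5p and miR-140-5p stood at 330.9 and 78.8 rpm there, near their lowest group means of 326.8 and 73.5. miR-24-3p, which in mammals is made from a cluster with miR-23 and miR-27, stood at 191 rpm in moderate hypoxia and 184 rpm in control at 24 h.

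The miRNAs most like miR-122-3p by share were miR-30b-5p (r = 0.85), let-7a-3p (0.82), miR-210-5p (0.81), miR-30c-5p (0.78) and miR-126b-5p (0.78), and the same 5 came first in rpm. Spearman's rho was 0.49, 0.56, 0.49, 0.38 and 0.70 in that order, and without severe hypoxia at 12 h, left out after seeing the data, r was 0.53, 0.57, 0.38, 0.34 and 0.63. Of the 5, let-7a-3p and miR-126b-5p were then still among the first 5 of the 151. The guide arm of its own hairpin was 97th of the 151. All 5, chosen for likeness to an arm that peaks in severe hypoxia at 12 h, had their own highest group mean in that group. The choice itself favours this. In severe hypoxia at 12 h let-7a-3p, the passenger arm of let-7a, stood at 294 rpm against 114 in control. miR-210-5p, from the hairpin of the hypoxia-induced miR-210 of mammals, stood at 694 rpm against 136.

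A liver list was made by number from miR-122, miR-192, miR-194, miR-148, miR-101, miR-22 and miR-21, and its specificity to liver was not tested. Of its 17 miRNAs, 1 was higher and 2 were lower in severe hypoxia than in control as a mean over times. The median was -0.08 log2 beside -0.02 over all 201 miRNAs tested, of which 11.4% were higher and 14.9% lower. The 1 that was higher was miR-122-3p. miR-101b-5p fell (log2 -0.30, adjusted p = 0.0104 in limma), as did miR-148-3p (log2 -0.37, adjusted p = 0.0146), which in mammals acts on the low-density lipoprotein receptor. At 12 h 2 of 17 were higher, both arms of miR-122, and 5 were lower, with a median of -0.48 beside -0.23, when 9.86% of all miRNAs tested were higher and 22.5% lower. At 24 h 8, miR-122-3p among them, were higher and 0 lower in limma, and 9 and 0 at an unadjusted p under 0.05, with a median of 0.66 beside 0.45, when 27.7% of all miRNAs tested were higher. Of 21 miRNAs of lipid and glucose metabolism, 18 were tested at 12 h in severe hypoxia against control. miR-34a-5p (log2 1.83, adjusted p = 0.000439) and miR-27b-3p (log2 1.07, adjusted p = 0.000451) were higher, 1 was lower, and the median was 0.04 beside -0.23. miR-34a-5p was scarce, with a mean of 3.34 rpm and a range from 0.73 to 9.25 over the libraries, which is few reads. miR-27b-3p averaged 3344 rpm. As a mean over times 5 of 18 were higher and 0 lower in limma, and 8 and 0 at an unadjusted p under 0.05, with a median of 0.16 beside -0.02, where 11.4% of all miRNAs were higher and 14.9% lower. In mammals miR-34a is a p53 target and miR-27b acts on lipid genes.

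Markers of other cell types were summed to see what moved with miR-122-3p in severe hypoxia at 12 h. All marker sums and their shares use all 3 deposited values of a group, averaged ones included. The endothelial list is 4 arms of miR-126. At 12 h none of them was at 0 in all 3 libraries of severe hypoxia or of control. Over the whole series miR-126b-3p ran from 0 to 22673 rpm in single libraries. The list made up 5.16% to 6.25% of the listed total in severe hypoxia at 12 h and 1.92% to 2.17% in control. At 24 h it made up 3.82% to 4.07% against 1.79% to 1.92%. At 12 h 2 of its 4 members were higher and 0 lower. At 24 h 4 were higher and 0 lower, when 27.7% of 213 miRNAs were higher. As a mean over times 2 were higher and 1 lower, where 11.4% of 201 miRNAs were higher and 14.9% lower. The counts of miR-126 arms are uncertain, because reads could be split between the paralogs miR-126a and miR-126b. Neuronal miRNAs differed the other way, with 22.5 to 26.5 rpm against 96.1 to 101 over 6 members. Of these, 2 were at 0 in all 3 libraries of severe hypoxia, and 3 of 4 tested were lower. Control itself changed over the hours, so both differences carry the control's own course. At 0, 4 and 8 h its endothelial share was 5.36% to 6.15%, 2.77% to 3.38% and 4.58% to 5.81%. Its neuronal sum was 28.44 to 41.96, 22.16 to 47.05 and 38.85 to 48.64 rpm at those hours. Over all 213 miRNAs tested at 12 h, 9.86% were higher and 22.5% lower. The part of either list in the result was not tested.

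The remaining marker lists moved less at 12 h. Erythrocyte miR-144 summed to 1807 to 1995 rpm in severe hypoxia and 1652 to 2658 rpm in control, with 0 of 2 called by limma and 1 lower at an unadjusted p under 0.05. Leukocyte miRNAs summed to 1805 to 3431 and 2824 to 3596 rpm, with 0 of 6 called and 0 at an unadjusted p under 0.05. Stromal miRNAs summed to 30914 to 41482 and 38943 to 40572 rpm, with 1 of 8 higher. Pancreatic miRNAs summed to 269 to 337 and 429 to 560 rpm, with 1 of 6 tested lower. Muscle miRNAs summed to at most 23.6 rpm in both, with 0 of 1 tested called, adjusted or not. Epithelial and bile duct miRNAs summed to 2610 to 3081 and 1956 to 2153 rpm, with 1 of 11 tested higher. The hepatocyte marker is miR-122 itself.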

How the data were processed

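The authors deposited 1 table per library with rpm values (reads scaled to a library total) of named miRNAs. The unit was read from the values. Not given in the sources used here were the denominator, the trimming, the aligner and the genome build. Positions and sequences are therefore not printed. Names are written without the species prefix. A value that equals the mean of the other 2 of its group (within 0.0101 rpm or 0.1%) was set to missing, and 1 of 3 identical values was kept. Of 3607 sets of 3 above 0, 3109 held such a mean and 386 were identical. The rule behind these values is unknown, so p-values may be too small. Where all 3 values of a group were 0 (383 sets), they were also set to missing. Comparisons that use such a group were not made for that miRNA. Changes to or from 0 throughout a group are therefore not among those counted.

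miRNAs averaging 1 rpm or more over the libraries (228) were fitted on log2(rpm + 1) with limma 3.58.1 in R 4.3.3, 15 groups in 1 fit, with a variance trend. Each miRNA was fitted on its own measured values, and the variances were then moderated by limma. Fold changes are on that scale and understate low miRNAs. Log2 ratios of 5p to 3p were fitted likewise over 73 precursors. Contrasts were two-sided and the others were F-tests. Adjustment was by Benjamini-Hochberg over all miRNAs or precursors of a comparison. The exact permutation test reassigned oxygen labels within each hour. The fit was tested on simulated data. No pairing of the libraries by replicate number was seen. The whole-read count behind rpm could not be recovered well enough for a count test. Named miRNAs are both arms, for each arm the 5 with the most similar group means among those averaging 10 rpm or more, the most abundant miRNAs, and at most 2 called members of each liver list. Marker lists were made by the number in the name for erythrocytes, leukocytes, endothelium, stroma, pancreas, muscle, neurons, and epithelium and bile duct. The members and lists were chosen with earlier results of these data known.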

Additional observations from a re-analysis of the deposited data

Results flagged for a closer look

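The difference between oxygen levels depended on the hour in 4 of 6 interaction tests over miR-122, F-tests with 4 numerator degrees of freedom in limma. Such dependence was common. In severe hypoxia against control 57.2% of 201 miRNAs were called, and in moderate hypoxia 68.0% of 197. Of the arm ratios, 14 of 53 precursors were called in severe and 8 of 52 in moderate hypoxia. For miR-122-3p in severe hypoxia against control the adjusted p was 9.55e-05, with log2 differences of -0.23, 0.68, 0.13, 2.42 and 1.56 at 0, 4, 8, 12 and 24 h. For miR-122-5p in severe hypoxia it was 0.0126, with 0.20, 0.38, -0.85, 0.79 and -0.56 at those hours. For miR-122-5p in moderate hypoxia it was 0.000680, with -0.52, -0.77, -1.08, 0.87 and 1.12. For the 5p to 3p ratio in severe hypoxia it was 0.0148, with 0.43, -0.31, -0.94, -1.51 and -2.44. The control libraries themselves changed over these hours in both arms, so each difference carries the control's own course, and the part of it was not tested.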

How the results depend on the processing

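Of 275 recomputed means over times, time courses and interactions, library leave-outs aside, 237 kept their direction and their side of the threshold, and no called value changed sign. The means for miR-122-3p against control and moderate hypoxia and for the ratio in severe hypoxia rest on 12 and 24 h. Without both hours, a choice made after seeing the data, 3p was 0.19 over control and 0.47 over moderate hypoxia (adjusted p = 0.0511 in limma), and the ratio was -0.27 against control and -0.0025 against moderate hypoxia. With the spread of the 5 differences as the error the same values, 0.91, 1.09, -0.95 and -1.30, had adjusted p of 0.774, 0.975, 0.459 and 0.501, and in the exact permutation test the ratios -0.95 and -1.30 were not called. For miR-122-5p, means near 0 changed sign or were newly called. Severe minus control was 0.0054 on the listed total, 0.0083 by median of ratios, 0.20 without 8 h and 0.13 without 24 h. Moderate minus control was 0.16 rescaled to the listed total, 0.056 by median of ratios, 0.037, 0.10 and 0.18 without 0, 4 and 8 h, and -0.79 without 12 and 24 h (adjusted p = 0.00180). Severe minus moderate was -0.16 and -0.048 on the rescalings, -0.10 and -0.20 without 0 and 4 h, 0.50 without 24 h and 0.70 without 12 and 24 h. Leaving out libraries moved these means from -0.066 to 0.051, from -0.18 to 0.036 and from -0.044 to 0.18. The moderate ratio mean was -0.27 without 12 and 24 h. The moderate 3p mean was 0.030 rescaled to the listed total and -0.17 with all 3 deposited values (adjusted p = 0.0336), and its dependence on the hour passed on the listed total (0.0299), by median of ratios (0.0415) and with all deposited values (0.0208). That of the moderate ratio passed with all deposited values (3.12e-07), a pseudocount of 5 (0.0285) and only the groups compared (0.0418). The 5p time course in severe hypoxia passed with all deposited values (0.000719) and only its groups (0.0488). The 3p time course in moderate hypoxia missed with only its groups (0.0630) and ran from 0.000800 to 0.104 over the library leave-outs. The causes were not tested.

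Of 45 pairs of libraries with the same number at the same hour, 16 had a correlation of deviations over 0.1 and 12 below -0.1. The median was 0.016, so no pairing by number was seen. With so few measured values per group, these correlations cannot tell whether libraries of the same number share a tank or batch. With the replicate block miR-122-3p in severe hypoxia against control was 0.89 (adjusted p = 3.53e-05 in limma), and of the results reported only the calls of miR-122-5p at 8 h (0.0621) and 12 h (0.0801) ended. Counts of miRNAs called moved more, from 53 to 121 for severe hypoxia against control with all deposited values, from 75 to 34 for moderate hypoxia on the listed total, and both to 0 in limma with the spread of the 5 differences, where 11 and 12 had an unadjusted p under 0.05. The ratio at 12 and 24 h has 1 measured library a group, so leaving that library out gives no value. Implied depth limits miR-122-3p most in control and moderate hypoxia at 24 h.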
